A study of Mus musculus with 8 samples.

Results

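The proteasome subunits and the factors named after them were followed through *Arid1a* KO and WT prostate tumors with and without JSH-23. Genes were taken by symbol, as Psm followed by a letter from a to f and a number, with *Psmb8* and *Psmb9* left out and at least 80 counts required over the 8 samples. Of the 39089 genes in the tables, 47 had such a symbol, 45 remained without *Psmb8* and *Psmb9*, and 42 reached the minimum. The 3 below it were *Psma8* with 1 count, *Psmb11* with 4 counts and *Psme2b* with 53 counts over all samples, and the lowest member above it was *Psmc3ip* with 1113 counts. The members comprised 7 subunits of the alpha ring, 8 of the beta ring, 6 ATPases and 11 non-ATPases of the cap, 3 chaperones of cap assembly, and 5 that activate or inhibit the core. Another 2 members, *Psmc3ip* and *Psme3ip1*, matched by symbol but are not proteasome parts. All 42 members passed the filter on low counts.

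The proteasome is the barrel-shaped protease that degrades proteins tagged with ubiquitin. Outer alpha rings gate the barrel, inner beta rings hold its catalytic sites, and a regulatory cap recognises, unfolds and threads the substrate in, while other activators open the barrel without ubiquitin. In NF-κB signaling it destroys the inhibitor IκB, which frees p65 to enter the nucleus, and JSH-23 acts on that nuclear entry.

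Tumors were grown under the skin of male FVB mice from Myc-CaP, a prostate cancer line from a *Myc* transgenic mouse, and all hosts were 6 weeks old at inoculation. WT tumors carried the control vector and *Arid1a* KO tumors a guide RNA against *Arid1a*. From day 16 the mice received JSH-23, dissolved in DMSO and diluted in corn oil, or the corn oil vehicle by daily gavage over 2 weeks, after which EpCAM-positive and CD45-negative cells were sorted for RNA-seq. The 4 groups (WT with vehicle, *Arid1a* KO with vehicle, WT with JSH-23 and *Arid1a* KO with JSH-23) had 2 samples each, all from a single cell line. Nothing says that the samples came from separate tumors, so p-values measure the spread between these samples, which may be technical. Total counts were 16650998 and 16803946 in vehicle-treated WT, 17559823 and 20066676 in vehicle-treated *Arid1a* KO, 17792910 and 16401581 in JSH-23-treated WT and 19353506 and 21972231 in JSH-23-treated *Arid1a* KO tumors. A gene is compared between samples in CPM, its count scaled to the depth of the sample with TMM factors. Different genes are compared in TPM, which also divide by gene length. Tests used edgeR's quasi-likelihood model over all genes with Benjamini-Hochberg adjustment, and a gene was called at an adjusted p under 0.05.

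The targeted gene was lower in every *Arid1a* KO sample. *Arid1a* stood at 156 and 162 CPM in vehicle-treated WT, 103 and 106 CPM in vehicle-treated *Arid1a* KO, 144 and 155 CPM in JSH-23-treated WT and 93.8 and 95.9 CPM in JSH-23-treated *Arid1a* KO tumors. No KO value overlapped a WT value, and the log2 fold change was -0.60 with vehicle (edgeR, adjusted p = 1.39e-23) and -0.66 with JSH-23. The labelled epithelial identity was only in part visible in marker genes. *Krt8* had between 540 and 2308 counts a sample, but *Epcam*, the marker of the sort, had between 0 and 4, *Krt18* between 4 and 18 and *Cdh1* between 1 and 19. Of 9 leukocyte markers, 4 (*Cd3e*, *Cd79a*, *S100a8* and *S100a9*) had at most 3 counts in any sample, and the most abundant was *Lyz2*. The summed leukocyte markers stood at 11.9 and 12.2 CPM in vehicle-treated WT, 3.31 and 3.78 CPM in vehicle-treated *Arid1a* KO, 13.6 and 5.53 CPM in JSH-23-treated WT and 4 and 2.64 CPM in JSH-23-treated *Arid1a* KO tumors. The 7 fibroblast markers summed to 61.3 and 66.2 CPM in vehicle-treated WT, 65.6 and 65.7 CPM in vehicle-treated *Arid1a* KO, 63.5 and 62.1 CPM in JSH-23-treated WT and 43.6 and 42 CPM in JSH-23-treated *Arid1a* KO tumors, most of it *Pdgfra*. *Lum* had at most 2 counts in any sample. The 4 endothelial markers summed to between 0.533 and 1.68 CPM, led by *Pecam1*. Leukocyte markers were thus below WT in the *Arid1a* KO samples both with vehicle and with JSH-23. The fibroblast sum was lowest in *Arid1a* KO tumors with JSH-23, where many proteasome members were highest. That low sum followed *Pdgfra*, at 38 and 38.5 CPM there and 53.3 to 61.3 CPM in the other groups. No other fibroblast marker exceeded 3.59 CPM in any sample. The sum thus read mostly 1 gene and not the fibroblast markers as a set. The part of these cell types in the result was not tested. In bulk samples fewer cells of a type and less RNA per cell cannot be told apart.

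The 40 proteasome members together made up between 0.619% and 0.668% of all TPM in a sample. Although the rings hold their subunits in equal numbers, transcript levels per length were unequal within each group. Averaged over the 8 samples, the alpha ring ranged from 72.2 TPM for *Psma3* to 312 TPM for *Psma6*, and the beta ring from 36.7 TPM for *Psmb10* to 402 TPM for *Psmb1*. The *Psmb10* product replaces that of *Psmb7* in some proteasomes, so equal numbers do not apply to it. Without *Psmb10* the lowest of the beta ring was *Psmb5* at 97.7 TPM. The cap ATPases ranged from 60.2 TPM for *Psmc4* to 231 TPM for *Psmc1*, the non-ATPases from 42.4 TPM for *Psmd6* to 428 TPM for *Psmd8*, the cap chaperones from 28.6 TPM for *Psmd9* to 79.4 TPM for *Psmd5*, and the activators and inhibitor from 24.4 TPM for *Psmf1* to 201 TPM for *Psme1*. *Psmd8*, a cap subunit, led all members, and *Psmf1*, which encodes the inhibitor PI31, was the lowest of the proteasome members. The median of the mean levels was 176 TPM in the alpha ring, 202 TPM in the beta ring, 147 TPM among the cap ATPases and 148 TPM among the non-ATPases. The cap chaperones and the activators were lower, with medians of 79.3 and 68.0 TPM.

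The first question was how these genes differed after loss of *Arid1a*. With vehicle, *Arid1a* KO exceeded WT tumors for 15 of the 42 members and lay below them for 8, against 25% and 25.5% of the 13921 genes tested, and the member median was 0.03 on the log2 scale against 0.00 for all genes. Calls were also counted by role, and differences between roles were not tested. Among the cap ATPases 4 of 6 were higher and none lower (median 0.25), whereas in the alpha ring 1 of 7 was higher and 4 were lower (median -0.10). Scaling by library size alone and TPM values kept these signs (medians of 0.28 and 0.26 for the ATPases, -0.08 and -0.10 for the alpha ring). In the beta ring 2 of 8 were higher and none lower (median 0.02). Among the non-ATPases of the cap 3 of 11 were higher and 1 lower (median 0.01). Of the cap chaperones 1 of 3 was higher and 2 lower (median -0.13), and of the activators and inhibitor 2 of 5 were higher and 1 lower (median 0.05). For the number lower, an unadjusted p in edgeR gave 1 among the cap ATPases and 0 in the beta ring, and DESeq2 and limma on TPM values called 0 in both. No member reached a 1.5-fold change with an adjusted p under 0.05 in edgeR, where 12.6% of all genes did, and the number was also 0 at an unadjusted p under 0.05, in DESeq2 and with limma on TPM values.

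With JSH-23 in both genotypes, 32 members were higher in *Arid1a* KO than in WT tumors and 1, *Psme4*, was lower, against 23.2% and 23.8% of all genes. The median of the members was 0.24 and that of all genes -0.01. In edgeR every group held members that were higher. These were 6 of 7 in the alpha ring, 6 of 8 in the beta ring and 5 of 6 cap ATPases. Also higher were 9 of 11 non-ATPases, 2 of 3 cap chaperones and 3 of 5 among the activators and inhibitor. In the same order limma on TPM values called 2, 4, 1, 5, 0 and 1 higher. From TPM values the medians of the cap ATPases (0.18) and of the activators and inhibitor (0.13) turned to -0.01 and -0.06. The sizes were small, with log2 fold changes from -0.18 to 0.52, and 0 members passed 1.5-fold with an adjusted p under 0.05 in edgeR, against 8.71% of genes. The number was 0 as well at an unadjusted p, in DESeq2 and with limma on TPM values. The count depended on the scale and on the spread between samples. With the biological coefficient of variation set to 0.1, instead of the 1.61% fitted, edgeR called 5 members higher and 0 lower. Limma on log2(TPM + 1) called 13 members higher and 5 lower, with a median of 0.05 where that of all genes was -0.16. Scaling by library size alone called 27 higher and 2 lower, with medians of 0.16 and -0.09. Relative to the median of all genes the members were shifted by 0.25, 0.21 and 0.25 with TMM factors, TPM values and library size. These scales differ mainly by a factor per sample, which moves all genes alike. The similarity of the shifts is therefore no separate evidence.

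The comparison with vehicle and that with JSH-23 share no samples. In both, 12 members were higher in *Arid1a* KO tumors, while 5 members (*Psma3*, *Psma5*, *Psma7*, *Psmd10* and *Psme1*) were lower with vehicle and higher with JSH-23, and 15 were called, as higher, only with JSH-23. DESeq2 and library size alone kept both calls for *Psma3*, *Psma7* and *Psmd10*. In TPM values all 5 stayed lower with vehicle, but with JSH-23 they stood at 0.00, -0.03, 0.04, 0.05 and -0.06 without a call. The calls of *Psma5* and *Psme1* with JSH-23 and that of *Psme1* with vehicle were also lost in DESeq2 and by library size alone. *Psmb5*, *Psmb10* and *Psmd6* were called in neither by edgeR, whereas limma on TPM values called *Psmb5* and *Psmd6* lower with JSH-23 (-0.30 and -0.30). The interaction term tests such differences.

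**Figure D1:**
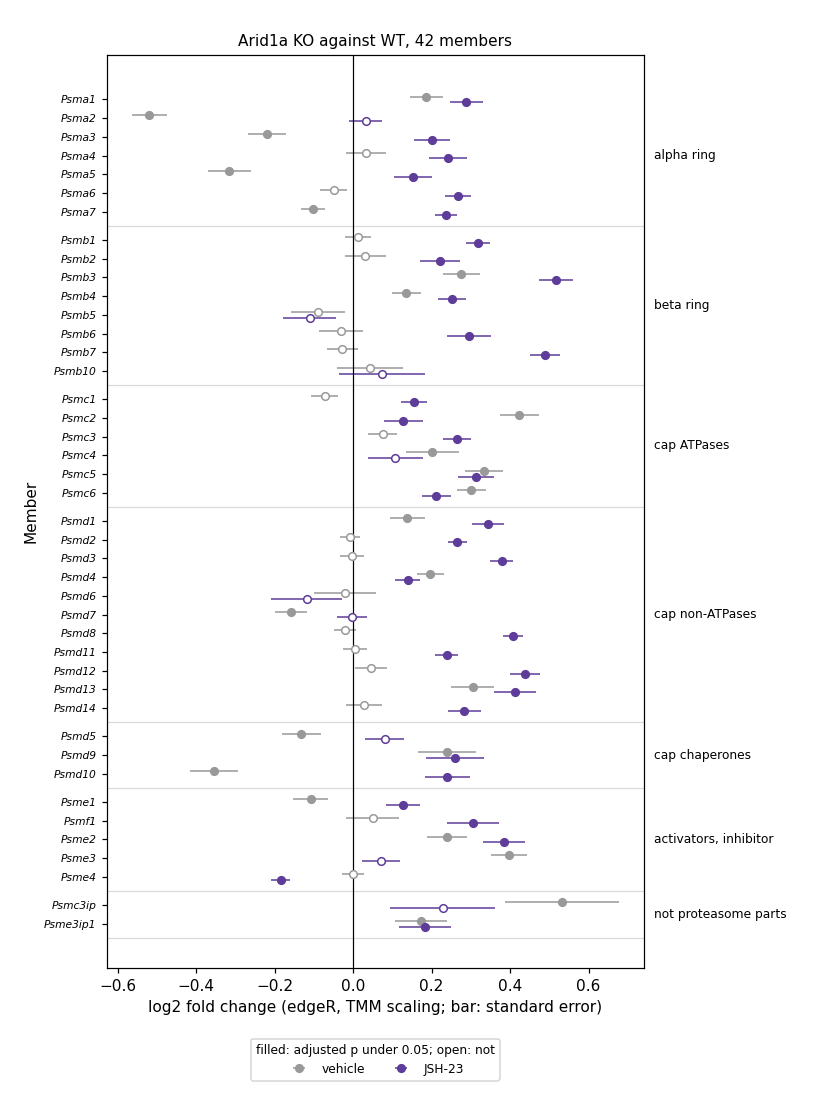
Log2 fold change of the 42 members in *Arid1a* KO against WT tumors with vehicle (grey) and with JSH-23 (purple), by subunit group, with the standard error from edgeR as a bar and filled points for an adjusted p under 0.05. With vehicle the points lie on both sides of 0, from -0.52 to 0.53, and with JSH-23 all but 4 lie above 0, on the TMM scale.

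The second question was how JSH-23 changed these genes in each genotype. In WT tumors 14 members rose with JSH-23 and 4 fell (*Psmb10*, *Psmd5*, *Psmd6* and *Psme2*), against 28.6% and 27.2% of all genes, with a member median of 0.02 on the log2 scale that was -0.02 in TPM values. In *Arid1a* KO tumors 27 members rose and 5 fell (*Psmb10*, *Psmc2*, *Psmc4*, *Psmd6* and *Psme3*), against 33.4% and 34.4% of all genes, with a median of 0.24 against -0.02 for all genes. A 1.5-fold change was reached by 2 members in WT tumors, *Psmb10* and *Psme4*, against 15.8% of genes, and by 5 in *Arid1a* KO tumors, *Psma5*, *Psmb10*, *Psmd6*, *Psmd8* and *Psmd10*, against 26%. The latter number was 8 without the first *Arid1a* KO sample with JSH-23. The shares were also taken over the 9174 tested genes whose mean level lay between those of the lowest and the highest member (7.55 and 297 CPM): 36.1% of these rose and 28.4% fell in WT tumors, and 41.4% rose and 33.6% fell in *Arid1a* KO tumors. The comparisons of JSH-23 in *Arid1a* KO tumors and of *Arid1a* KO with WT tumors share the *Arid1a* KO samples with vehicle or with JSH-23, so their counts are not independent of each other.

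The interaction term, which tests whether the change with JSH-23 differed between the genotypes, was called for 28 members. It was more positive in *Arid1a* KO tumors for 25 and more negative for 3 (*Psmc2*, *Psme3* and *Psme4*), against 20.5% and 17.9% of all genes, and 25.4% and 22.3% of genes of like abundance. The median interaction of the members was 0.21 on the log2 scale, and 1 member, *Psmd10*, differed by over 1.5-fold in edgeR, against 9.07% of genes. That number was 0 without the first WT sample with vehicle, the second WT sample with JSH-23 or the first *Arid1a* KO sample with vehicle, and 2 without the first WT sample with JSH-23, the second *Arid1a* KO sample with vehicle or the first *Arid1a* KO sample with JSH-23. By role, the interaction was positive for 6 of 7 in the alpha ring, 5 of 8 in the beta ring, 8 of 11 non-ATPases of the cap and 2 of 3 cap chaperones with none negative, for 2 cap ATPases with 1 negative, and for 2 of the activators and inhibitor with 2 negative. For the groups with none negative in edgeR, an unadjusted p and DESeq2 also gave 0, while limma on TPM values called 1 negative in the beta ring and 2 among the non-ATPases. Among the cap ATPases the median interaction was -0.055, and 4 of 6 estimates were negative. There limma on TPM values called 0 positive and 4 negative, and library size alone 1 and 2. For the activators and inhibitor both called 0 positive and 2 negative. Their median, 0.14 in edgeR, was -0.05 in TPM values.

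These counts rested on the scale and on the small spread between samples. In TPM values, whose median change of all genes with JSH-23 in *Arid1a* KO tumors was -0.20, limma called 18 members higher and 15 lower with JSH-23 there, 14 higher and 11 lower in WT tumors, and 9 positive and 10 negative interactions. The group medians in *Arid1a* KO tumors were positive for the alpha ring and the non-ATPases of the cap both with TMM factors (0.43 and 0.39) and in TPM values (0.19 and 0.15). Those of the beta ring (0.15), the cap ATPases (0.10), the cap chaperones (0.10) and the activators and inhibitor (0.14) turned negative in TPM values, at -0.09, -0.14, -0.14 and -0.10, and scaling by library size alone gave -0.01 for the ATPases and -0.01 for the chaperones. Against the median of all genes, the 42 members were shifted by 0.26 with TMM factors and 0.21 in TPM values with JSH-23 in *Arid1a* KO tumors. The shifts were 0.03 and 0.02 in WT tumors, and 0.21 and 0.18 in the interaction. Since both scales differ mainly by a factor per sample, their similarity is no separate evidence. When the biological coefficient of variation was set to 0.1, instead of the 1.61% fitted, edgeR called 17 members higher and 3 lower with JSH-23 in *Arid1a* KO tumors but 0 interactions. For the interactions, an unadjusted p under 0.05 then gave 6 positive and 0 negative, and at its own dispersions DESeq2 called 20 positive and 3 negative.

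**Figure D2:**
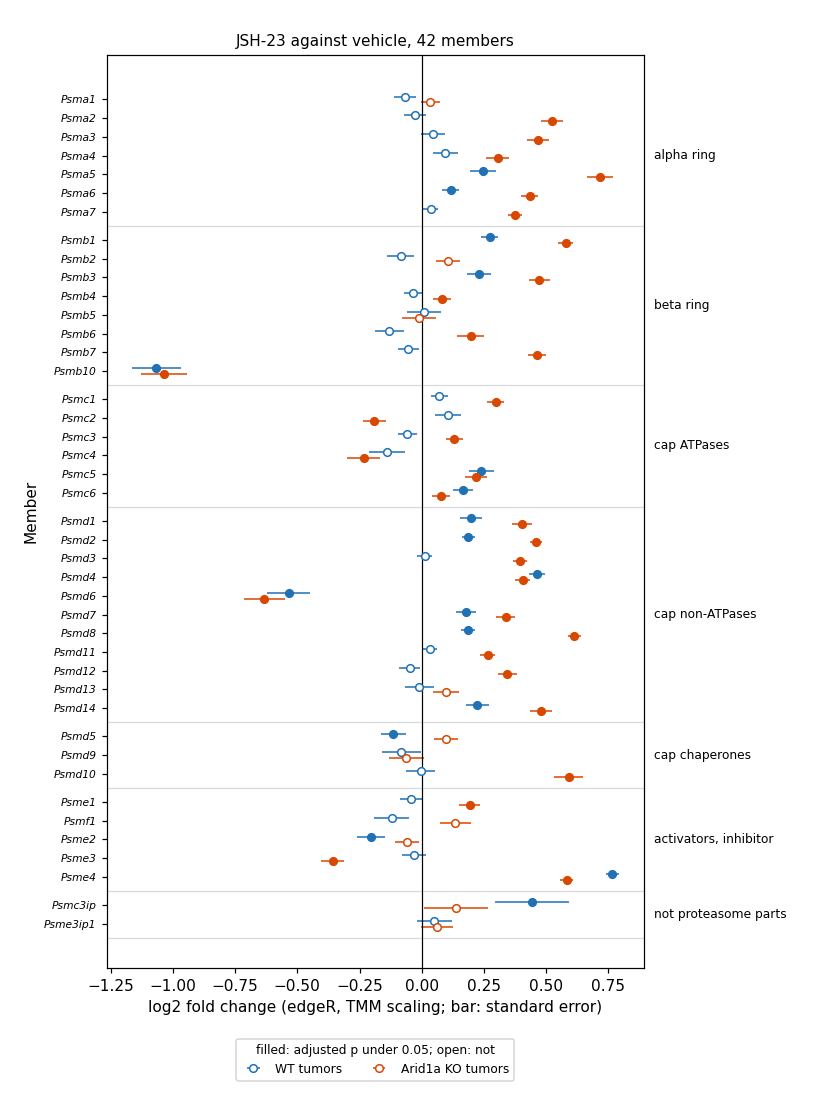
Log2 fold change of the 42 members with JSH-23 against vehicle in WT (blue) and *Arid1a* KO tumors (orange), by subunit group, with the standard error from edgeR as a bar and filled points for an adjusted p under 0.05, on the TMM scale. In *Arid1a* KO tumors 34 points lie above 0 and in WT tumors 23, and *Psmb10* and *Psmd6* lie far below 0 in both; in TPM values the medians of several groups fell below 0.

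In the alpha ring, summed levels were 700.2 and 715 CPM in vehicle-treated WT, 657 and 646 CPM in vehicle-treated *Arid1a* KO, 746 and 728 CPM in JSH-23-treated WT and 844 and 863 CPM in JSH-23-treated *Arid1a* KO tumors. In CPM the ring was thus lowest in *Arid1a* KO tumors with vehicle and highest in *Arid1a* KO tumors with JSH-23, with no overlap of either with another group. In summed TPM the former were still the lowest (1250 and 1228), but *Arid1a* KO samples with JSH-23 (1376 and 1384) overlapped WT samples with JSH-23 (1387 and 1344). *Psma2*, a gate subunit on chromosome 13 (14613242 to 14625673 of GRCm38), stood at 91.0 and 94.4 CPM in vehicle-treated WT, 63.0 and 66.2 CPM in vehicle-treated *Arid1a* KO, 93.2 and 88.8 CPM in JSH-23-treated WT and 90.2 and 95.7 CPM in JSH-23-treated *Arid1a* KO tumors. Both *Arid1a* KO samples with vehicle were below all 6 others, which overlapped. Against WT this was -0.52 (standard error 0.0455, adjusted p = 4.88e-16) on the log2 scale in edgeR, and 0.03 with JSH-23 (adjusted p = 0.578), with an interaction of 0.55. With JSH-23 limma on TPM values called it lower in *Arid1a* KO tumors, at -0.16. *Psma5*, on chromosome 3 (108256926 to 108279952), had the largest changes with JSH-23 in the ring, with levels of 62.8 and 69.6 CPM in vehicle-treated WT, 54.2 and 52.3 CPM in vehicle-treated *Arid1a* KO, 81.2 and 75.8 CPM in JSH-23-treated WT and 91.9 and 83.2 CPM in JSH-23-treated *Arid1a* KO tumors. With JSH-23 all samples were above those with vehicle in either genotype. It rose by 0.72 (standard error 0.0505, adjusted p = 1.15e-20) in *Arid1a* KO and by 0.25 (standard error 0.0518, adjusted p = 3.73e-05) in WT tumors in edgeR, with an interaction of 0.47 that was 0.27 in TPM values (adjusted p = 0.0544). *Psma1* behaved otherwise, with levels of 86.3 and 86.3 CPM in vehicle-treated WT, 100.7 and 96.0 CPM in vehicle-treated *Arid1a* KO, 84.0 and 80.7 CPM in JSH-23-treated WT and 102 and 99.7 CPM in JSH-23-treated *Arid1a* KO tumors. Here the *Arid1a* KO samples were above the WT samples in both treatments, by 0.19 with vehicle and by 0.29 (standard error 0.0414, adjusted p = 1.46e-08) with JSH-23 on the log2 scale in edgeR, and the interaction was 0.10 (adjusted p = 0.172). The other 4 alpha subunits had log2 fold changes with JSH-23 from 0.30 to 0.47 in *Arid1a* KO and from 0.04 to 0.12 in WT tumors.

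The beta ring holds the proteolytic sites, the chymotrypsin-like site in *Psmb5*, the caspase-like site in *Psmb6* and the trypsin-like site in *Psmb7*. These 3 genes did not move together. *Psmb7*, on chromosome 2 (38588046 to 38643952), stood at 95.9 and 94.9 CPM in vehicle-treated WT, 95.6 and 91.7 CPM in vehicle-treated *Arid1a* KO, 91.8 and 92.0 CPM in JSH-23-treated WT and 129 and 129 CPM in JSH-23-treated *Arid1a* KO tumors. With JSH-23 both *Arid1a* KO samples were above all 6 others. The rise with JSH-23 was 0.46 (standard error 0.037, adjusted p = 3.28e-18) in *Arid1a* KO tumors in edgeR, and the value in WT tumors was -0.05 (adjusted p = 0.267, while limma on TPM values called -0.09), an interaction of 0.52 (standard error 0.0551, adjusted p = 2.19e-12). *Psmb6*, on chromosome 11 (70525324 to 70527858), stood at 51.7 and 50.5 CPM in vehicle-treated WT, 49.8 and 50.0 CPM in vehicle-treated *Arid1a* KO, 45.7 and 47.7 CPM in JSH-23-treated WT and 56.1 and 58.2 CPM in JSH-23-treated *Arid1a* KO tumors. Its *Arid1a* KO samples with JSH-23 were again the highest in CPM, but by less. The rise in *Arid1a* KO tumors was 0.20 (standard error 0.0537, adjusted p = 9.88e-04) in edgeR, and -0.04 in TPM values. Scaling by library size gave 0.08 (adjusted p = 0.164, and 3.81e-04 to 0.296 over all alternatives). The interaction was 0.33 (standard error 0.0792, adjusted p = 5.36e-04) in edgeR. *Psmb5*, on chromosome 14 (54614120 to 54617995), stood at 35.6 and 37.0 CPM in vehicle-treated WT, 33.9 and 34.3 CPM in vehicle-treated *Arid1a* KO, 38.0 and 35.0 CPM in JSH-23-treated WT and 33.6 and 34.1 CPM in JSH-23-treated *Arid1a* KO tumors. The samples lay between 33.6 and 38.0 CPM. All 4 *Arid1a* KO samples were below all 4 WT samples and the treatments overlapped in CPM. The log2 fold changes lay between -0.11 and 0.01 with adjusted p-values from 0.183 to 0.921 in edgeR, which does not show that the groups were equal. In TPM values the 2 *Arid1a* KO samples with JSH-23 were the lowest (83.3 and 83.7 TPM), and limma called *Psmb5* lower there than in WT with JSH-23 (-0.30) and in *Arid1a* KO with vehicle (-0.25), with an interaction of -0.21. Library size alone called only the first of these (-0.19).

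*Psmb10* encodes the inducible subunit that takes the place of the *Psmb7* product in the immunoproteasome, the form that favours peptides for antigen presentation. It lies on chromosome 8 (105935728 to 105938392) and stood at 27.0 and 23.6 CPM in vehicle-treated WT, 24.3 and 27.7 CPM in vehicle-treated *Arid1a* KO, 12.3 and 11.8 CPM in JSH-23-treated WT and 12.8 and 12.6 CPM in JSH-23-treated *Arid1a* KO tumors. All 4 samples with JSH-23 were below all 4 with vehicle, and the genotypes overlapped with vehicle. The log2 fold change with JSH-23 was -1.07 (standard error 0.0992, adjusted p = 5.32e-15) in WT and -1.04 (standard error 0.0931, adjusted p = 6.17e-16) in *Arid1a* KO tumors in edgeR, and the interaction was 0.03 (adjusted p = 0.892). Per length, the TPM of *Psmb10* relative to that of *Psmb7* was 23.4% and 20.7% in vehicle-treated WT, 21.2% and 25.1% in vehicle-treated *Arid1a* KO, 11.1% and 10.7% in JSH-23-treated WT and 8.28% and 8.12% in JSH-23-treated *Arid1a* KO tumors. The ratio was below that of every vehicle sample in all 4 samples with JSH-23. *Psmb3*, a noncatalytic subunit on chromosome 11 (97703434 to 97713500), showed the largest difference between the genotypes in the ring, with levels of 69.6 and 68.5 CPM in vehicle-treated WT, 87.8 and 79.8 CPM in vehicle-treated *Arid1a* KO, 79.1 and 83.2 CPM in JSH-23-treated WT and 113 and 119 CPM in JSH-23-treated *Arid1a* KO tumors. Within each treatment the *Arid1a* KO samples were above the WT samples, by 0.28 (standard error 0.0468, adjusted p = 7.67e-07) under vehicle and 0.52 (standard error 0.0428, adjusted p = 4.69e-17) under JSH-23, in edgeR.

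**Figure D3:**
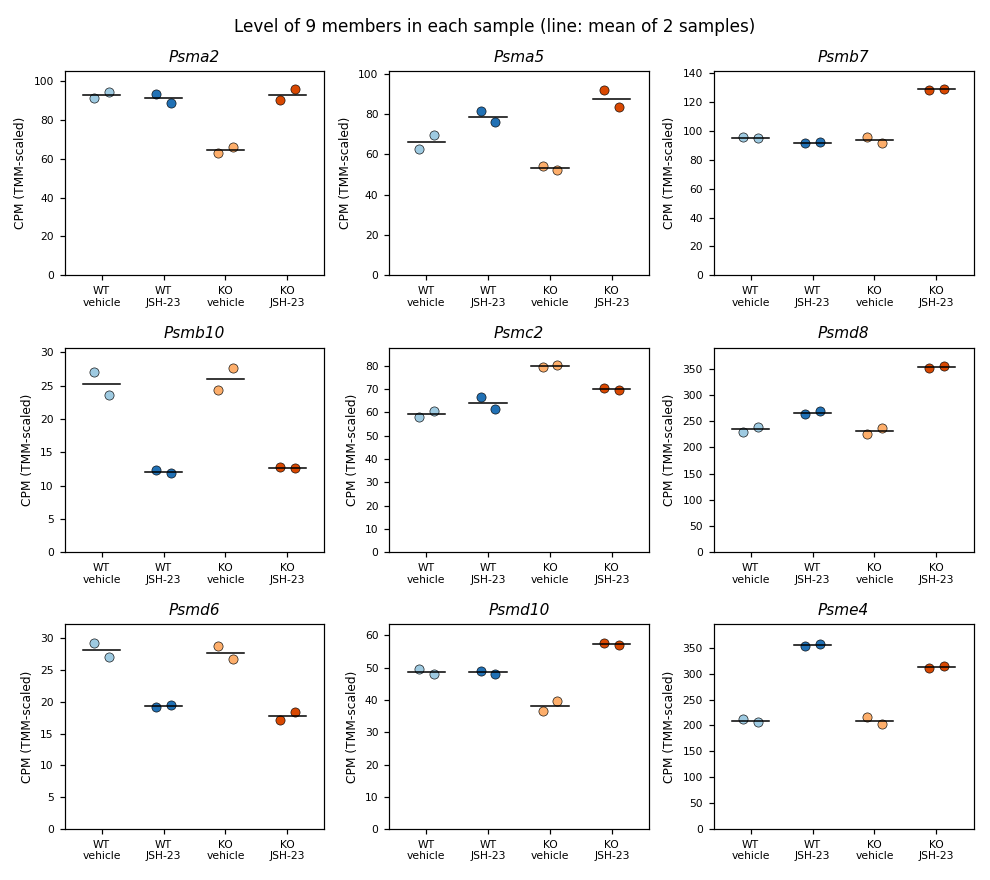
Levels of 9 members in each sample, in CPM scaled by TMM factors on axes from 0, with both samples of a group as points and their mean as a line. *Psmb7*, *Psmd8* and *Psmd10* are highest in *Arid1a* KO tumors with JSH-23, *Psma2* is lowest in *Arid1a* KO tumors with vehicle, *Psmb10* and *Psmd6* are lower and *Psme4* higher in every sample with JSH-23, and *Psmc2* is highest in *Arid1a* KO tumors with vehicle.

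The 6 ATPases form the ring of the cap that unfolds substrates. Their summed level was 508 and 506 CPM in vehicle-treated WT, 576 and 564 CPM in vehicle-treated *Arid1a* KO, 536 and 530.4 CPM in JSH-23-treated WT and 612 and 617 CPM in JSH-23-treated *Arid1a* KO tumors. Unlike in the alpha ring, *Arid1a* KO was above WT with vehicle too. The order differed in summed TPM, where *Arid1a* KO samples with vehicle were the highest (931 and 911), above *Arid1a* KO (847 and 847) and WT samples with JSH-23 (840.4 and 833) and WT samples with vehicle (818 and 816). *Psmc2*, on chromosome 5 (21785275 to 21803787), stood at 58.1 and 60.7 CPM in vehicle-treated WT, 79.3 and 80.1 CPM in vehicle-treated *Arid1a* KO, 66.3 and 61.3 CPM in JSH-23-treated WT and 70.2 and 69.5 CPM in JSH-23-treated *Arid1a* KO tumors. Highest were the *Arid1a* KO samples with vehicle, above WT by 0.42 (standard error 0.0487, adjusted p = 1.47e-11) in edgeR. With JSH-23 it fell by 0.19 in *Arid1a* KO tumors, with an interaction of -0.30 (standard error 0.0691, adjusted p = 3.22e-04). *Psmc5*, on chromosome 11 (106256185 to 106263112), stood at 59.4 and 58.5 CPM in vehicle-treated WT, 77.2 and 71.6 CPM in vehicle-treated *Arid1a* KO, 69.1 and 70.1 CPM in JSH-23-treated WT and 85.5 and 87.4 CPM in JSH-23-treated *Arid1a* KO tumors. In CPM the genotypes were apart within each treatment and the treatments within each genotype, with log2 fold changes of 0.31 (standard error 0.0459, adjusted p = 2.46e-08) between the genotypes with JSH-23 and 0.24 (standard error 0.0504, adjusted p = 3.97e-05) for JSH-23 in WT tumors, and the interaction was -0.02 (adjusted p = 0.85, edgeR). In TPM values the treatments overlapped in *Arid1a* KO tumors, where the change with JSH-23, 0.22 and called in edgeR, was -0.02, and limma called an interaction of -0.22. *Psmc1*, on chromosome 12 (100110202 to 100123364), stood at 139.5 and 137 CPM in vehicle-treated WT, 129 and 134 CPM in vehicle-treated *Arid1a* KO, 144 and 146 CPM in JSH-23-treated WT and 164 and 159 CPM in JSH-23-treated *Arid1a* KO tumors. Highest were the *Arid1a* KO samples with JSH-23, and the rise with JSH-23 in *Arid1a* KO tumors was 0.30 (standard error 0.0326, adjusted p = 1.43e-12) in edgeR. In TPM values these samples overlapped the WT samples, and the change was 0.06 (adjusted p = 0.0854). *Psmc3*, *Psmc4* and *Psmc6* had log2 fold changes with JSH-23 of 0.13, -0.23 and 0.08 in *Arid1a* KO tumors, all called in edgeR. In TPM values, where the median change of all genes was -0.20, they stood at -0.11, -0.46 and -0.16, all called lower. The change of direction of *Psmc3* and *Psmc6* thus came with a shift of scale that moved all genes. DESeq2 did not call *Psmc6* (adjusted p = 0.172), and library size alone called neither of these 2.

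The non-ATPases of the cap include the scaffold, the ubiquitin receptor *Psmd4* and the deubiquitinase *Psmd14*. Their summed level was 1363 and 1385 CPM in vehicle-treated WT, 1383 and 1416 CPM in vehicle-treated *Arid1a* KO, 1521 and 1513 CPM in JSH-23-treated WT and 1839 and 1864 CPM in JSH-23-treated *Arid1a* KO tumors. In CPM the genotypes overlapped with vehicle and were apart with JSH-23. *Psmd8*, on chromosome 7 (29174187 to 29180673), had the smallest interaction p of all members, with levels of 230.5 and 238 CPM in vehicle-treated WT, 225 and 236 CPM in vehicle-treated *Arid1a* KO, 264 and 269 CPM in JSH-23-treated WT and 352 and 355 CPM in JSH-23-treated *Arid1a* KO tumors. Both groups with JSH-23 were above both with vehicle, and the *Arid1a* KO samples with JSH-23 were the highest. It rose by 0.61 (standard error 0.0251, adjusted p = 3.33e-33) in *Arid1a* KO and by 0.19 (standard error 0.027, adjusted p = 1.63e-08) in WT tumors in edgeR, an interaction of 0.43 (standard error 0.0369, adjusted p = 5.58e-16). *Psmd3*, a scaffold subunit on chromosome 11 (98682554 to 98695978), stood at 177 and 179 CPM in vehicle-treated WT, 178 and 177 CPM in vehicle-treated *Arid1a* KO, 182 and 177 CPM in JSH-23-treated WT and 228 and 238 CPM in JSH-23-treated *Arid1a* KO tumors. The first 6 of these values overlapped and both *Arid1a* KO samples with JSH-23 stood above them, with an interaction of 0.38 (standard error 0.0418, adjusted p = 6.04e-12) in edgeR. *Psmd12*, on chromosome 11 (107479528 to 107498036), stood at 89.0 and 88.5 CPM in vehicle-treated WT, 90.3 and 92.8 CPM in vehicle-treated *Arid1a* KO, 86.7 and 84.9 CPM in JSH-23-treated WT and 117 and 116 CPM in JSH-23-treated *Arid1a* KO tumors. Again the *Arid1a* KO samples with JSH-23 were above the other 6. The difference between the genotypes with JSH-23 was 0.44 (standard error 0.0393, adjusted p = 1.55e-15) in edgeR. In TPM values these samples were still the highest, by smaller margins. They had 501 and 503 TPM for *Psmd8*, 229.5 and 237 for *Psmd3* and 146 and 144 for *Psmd12*. All other samples had at most 436, 211 and 136.5 TPM.

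*Psmd6* was the only non-ATPase of the cap called lower with JSH-23 in edgeR. It lies on chromosome 14 (14112185 to 14120945) and stood at 29.1 and 26.9 CPM in vehicle-treated WT, 28.7 and 26.7 CPM in vehicle-treated *Arid1a* KO, 19.2 and 19.5 CPM in JSH-23-treated WT and 17.2 and 18.4 CPM in JSH-23-treated *Arid1a* KO tumors. All 4 samples with JSH-23 were below all 4 with vehicle. The log2 fold change was -0.53 (standard error 0.0855, adjusted p = 1.71e-07) in WT and -0.63 (standard error 0.0829, adjusted p = 5.10e-10) in *Arid1a* KO tumors in edgeR, with an interaction of -0.10 (adjusted p = 0.561). *Psmd13*, on chromosome 7 (140882394 to 140898642), differed by genotype, with levels of 49.5 and 47.8 CPM in vehicle-treated WT, 61.3 and 58.9 CPM in vehicle-treated *Arid1a* KO, 47.1 and 49.5 CPM in JSH-23-treated WT and 62.5 and 65.9 CPM in JSH-23-treated *Arid1a* KO tumors. All *Arid1a* KO samples were above all WT samples, by 0.30 (standard error 0.0548, adjusted p = 2.70e-06) with vehicle in edgeR, and JSH-23 gave -0.01 in WT and 0.10 in *Arid1a* KO tumors, neither of which was called, although limma on TPM values called the latter at -0.14. The other 6 non-ATPases all rose with JSH-23 in *Arid1a* KO tumors, by log2 fold changes from 0.26 for *Psmd11* to 0.48 for *Psmd14*, and in TPM values from 0.03, which was not called, to 0.24.

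Of the chaperones that assemble the cap base and then leave it, *Psmd10*, which encodes gankyrin, changed most. It lies on chromosome X (140948425 to 140956711) and stood at 49.6 and 47.9 CPM in vehicle-treated WT, 36.5 and 39.7 CPM in vehicle-treated *Arid1a* KO, 49.0 and 48.2 CPM in JSH-23-treated WT and 57.7 and 57.2 CPM in JSH-23-treated *Arid1a* KO tumors. Its *Arid1a* KO samples were the lowest with vehicle and the highest with JSH-23 in CPM, while the 4 WT samples overlapped. Against WT tumors the log2 fold change was -0.35 (standard error 0.0606, adjusted p = 9.13e-07) with vehicle and 0.24 with JSH-23 in edgeR, and JSH-23 raised it by 0.59 (standard error 0.0574, adjusted p = 1.59e-14) in *Arid1a* KO tumors. The interaction was 0.59 (standard error 0.0827, adjusted p = 9.91e-09). In TPM values the *Arid1a* KO samples with JSH-23 (85.5 and 84.0 TPM) overlapped WT samples with vehicle (85.8 and 83.2 TPM), and the difference from WT with JSH-23 was 0.05 (adjusted p = 0.361), while the rise in *Arid1a* KO tumors (0.35) and the interaction (0.40) were still called. *Psmd9*, on chromosome 5 (123228190 to 123250126), stood at 30.3 and 27.5 CPM in vehicle-treated WT, 34.2 and 34.0 CPM in vehicle-treated *Arid1a* KO, 28.9 and 25.5 CPM in JSH-23-treated WT and 31.9 and 33.4 CPM in JSH-23-treated *Arid1a* KO tumors. Within each treatment the *Arid1a* KO samples were above the WT samples, by 0.26 (standard error 0.0747, adjusted p = 0.00276) under JSH-23 in edgeR. That call was lost without the second WT sample with JSH-23 (0.17, adjusted p = 0.122) and in TPM values (0.07), and the alternatives spanned adjusted p-values of 0.00131 to 0.436. *Psmd5*, on chromosome 2 (34852087 to 34870965), stood at 72.6 and 68.8 CPM in vehicle-treated WT, 64.1 and 64.8 CPM in vehicle-treated *Arid1a* KO, 62.6 and 68.1 CPM in JSH-23-treated WT and 68.2 and 69.8 CPM in JSH-23-treated *Arid1a* KO tumors. With JSH-23 both WT samples were below those with vehicle, by little: the log2 fold change was -0.11 (standard error 0.0503, adjusted p = 0.0484) in edgeR. It missed the threshold in DESeq2 (adjusted p = 0.191) and when any of 6 samples was left out: the first of either WT group (-0.07 and -0.05) or any *Arid1a* KO sample (-0.11 in each case). Its alternatives spanned adjusted p-values of 0.0197 to 0.627.

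Among the alternative activators, *Psme4*, which encodes PA200, rose most with JSH-23 in both genotypes. It lies on chromosome 11 (30771775 to 30881150) and stood at 212 and 206 CPM in vehicle-treated WT, 216 and 202 CPM in vehicle-treated *Arid1a* KO, 353 and 358 CPM in JSH-23-treated WT and 310.5 and 315 CPM in JSH-23-treated *Arid1a* KO tumors. The samples with vehicle overlapped, all samples with JSH-23 were above them, and with JSH-23 the WT samples were above the *Arid1a* KO samples. The rise was 0.77 (standard error 0.0267, adjusted p = 8.22e-37) in WT and 0.58 (standard error 0.0261, adjusted p = 5.36e-31) in *Arid1a* KO tumors in edgeR, with an interaction of -0.18 (standard error 0.0375, adjusted p = 4.49e-05), opposite in sign to most members. *Psme3*, which encodes the nuclear activator PA28γ, lies on chromosome 11 (101316213 to 101323537) and stood at 69.3 and 66.9 CPM in vehicle-treated WT, 87.4 and 91.7 CPM in vehicle-treated *Arid1a* KO, 64.0 and 69.4 CPM in JSH-23-treated WT and 68.7 and 71.1 CPM in JSH-23-treated *Arid1a* KO tumors. Its *Arid1a* KO samples with vehicle were above all others, by 0.40 (standard error 0.0466, adjusted p = 2.91e-11) against WT in edgeR. With JSH-23 *Psme3* fell by 0.36 there, with an interaction of -0.33 (standard error 0.0674, adjusted p = 4.88e-05). *Psme1* and *Psme2* encode the interferon-inducible PA28 activator that works with the immunoproteasome. *Psme2*, on chromosome 14 (55587440 to 55591101), stood at 58.1 and 59.5 CPM in vehicle-treated WT, 72.4 and 66.7 CPM in vehicle-treated *Arid1a* KO, 51.7 and 50.3 CPM in JSH-23-treated WT and 66.4 and 66.8 CPM in JSH-23-treated *Arid1a* KO tumors. In CPM all *Arid1a* KO samples were above all WT samples, by 0.24 with vehicle and 0.38 (standard error 0.0523, adjusted p = 3.35e-09) under JSH-23 in edgeR. Its copy *Psme2b* held 53 counts over the 8 samples against 9053 for *Psme2*. *Psme1* and the inhibitor *Psmf1* had interactions of 0.24 and 0.26, both called in edgeR. Neither was called by library size alone (0.13 and 0.15) or in TPM values (0.04 and 0.05), and DESeq2 called only that of *Psme1*.

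The 2 members that are not proteasome parts were kept apart. *Psmc3ip*, a recombination factor on chromosome 11 (101092141 to 101095435), stood at 5.64 and 5.53 CPM in vehicle-treated WT, 8.34 and 7.85 CPM in vehicle-treated *Arid1a* KO, 7.71 and 7.48 CPM in JSH-23-treated WT and 9.30 and 8.54 CPM in JSH-23-treated *Arid1a* KO tumors. The WT samples with vehicle were the lowest, below *Arid1a* KO by 0.53 (standard error 0.145, adjusted p = 0.00145) and below WT with JSH-23 by 0.44 (standard error 0.15, adjusted p = 0.00959) in edgeR. The latter was lost in DESeq2 (adjusted p = 0.0723) and without the first WT sample with JSH-23 (0.42, adjusted p = 0.0515), with alternatives from 0.00165 to 0.0848. *Psme3ip1*, which encodes a partner of PA28γ, lies on chromosome 8 (94574940 to 94601962), overlaps another gene of the same strand by 347 bases, and stood at 39.7 and 33.9 CPM in vehicle-treated WT, 41.9 and 41.1 CPM in vehicle-treated *Arid1a* KO, 39.3 and 37.0 CPM in JSH-23-treated WT and 43.9 and 42.7 CPM in JSH-23-treated *Arid1a* KO tumors. With JSH-23 the *Arid1a* KO samples were above WT by 0.18 in edgeR and at -0.0048 in TPM values, and the call was lost without the second WT sample (0.14) or the first *Arid1a* KO sample with JSH-23 (0.17). Without these 2 genes, the counts for the 40 proteasome members were 13 higher and 8 lower for *Arid1a* KO against WT under vehicle, 31 and 1 under JSH-23, 13 and 4 for JSH-23 in WT, 27 and 5 for JSH-23 in *Arid1a* KO tumors, and 25 and 3 for the interaction.

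Genes that work with these subunits were counted in the same tests, beside the shares of all genes given above. The genes named from these lists were chosen after their values were seen. Of other cap parts, assembly chaperones and bound enzymes whose symbols do not follow the pattern, 13 were in the tables. Of 3 more listed symbols, 2 were older names of *Sem1* and *Ecpas*, which are among the 13, and *Paaf1* was not found. Among the 13, *Arid1a* KO exceeded WT for 0 and lay below for 6 with vehicle, against 5 and 4 with JSH-23. JSH-23 raised 6 and lowered 0 in WT, raised 10 and lowered 0 in *Arid1a* KO tumors, and gave 7 positive and 3 negative interactions. These counts are from edgeR, and where they are 0, an unadjusted p gave 1 lowered in *Arid1a* KO tumors and 0 otherwise. In the same order, DESeq2 called 0 and 5, 5 and 3, 5 and 0, 10 and 0 and, for the interaction, 6 and 2, and limma on TPM values called 0 and 6, 1 and 6, 4 and 0, 5 and 2 and, for the interaction, 2 and 3. *Uchl5*, a deubiquitinase of the cap, stood at 30.4 and 32.5 CPM in vehicle-treated WT, 23.6 and 27.2 CPM in vehicle-treated *Arid1a* KO, 43.7 and 41.7 CPM in JSH-23-treated WT and 52.4 and 53.4 CPM in JSH-23-treated *Arid1a* KO tumors. Its *Arid1a* KO samples were the lowest with vehicle and the highest with JSH-23, a rise of 1.05 (standard error 0.0665, adjusted p = 5.08e-23) in edgeR. *Sem1*, the smallest cap subunit, rose by 0.59 and *Pomp*, a chaperone of core assembly, by 0.22 in *Arid1a* KO tumors, and *Adrm1*, a ubiquitin receptor, rose by 0.60 in WT and 0.32 in *Arid1a* KO tumors, all in edgeR. In *Arid1a* KO tumors limma on TPM values did not call *Pomp* (-0.02) or *Adrm1* (0.09).

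The immunoproteasome genes and their partners in antigen presentation and interferon response were counted apart. Of 9 listed genes, *Nlrc5* fell under the filter. Among the other 8, *Arid1a* KO exceeded WT for 7 and lay below for 0 with vehicle, against 3 and 2 with JSH-23. JSH-23 raised 2 and lowered 0 in WT, raised 1 and lowered 4 in *Arid1a* KO tumors, and gave 0 positive and 5 negative interactions. Each 0 from edgeR was also 0 at an unadjusted p. DESeq2 called 6 and 0, 3 and 2, 2 and 0, 1 and 3 and, for the interaction, 0 and 3 in that order, and limma on TPM values 6 and 0, 2 and 3, 2 and 0, 0 and 7 and, for the interaction, 0 and 7. *Psmb8*, the inducible counterpart of *Psmb5*, stood at 3.15 and 3.59 CPM in vehicle-treated WT, 7.57 and 8.19 CPM in vehicle-treated *Arid1a* KO, 3.46 and 2.92 CPM in JSH-23-treated WT and 5.41 and 4.65 CPM in JSH-23-treated *Arid1a* KO tumors. Every *Arid1a* KO sample was above every WT sample. With vehicle the difference was 1.23 (standard error 0.175, adjusted p = 1.03e-08) in edgeR, and with JSH-23 *Psmb8* fell by 0.65 in *Arid1a* KO tumors, where the interaction was -0.58 (adjusted p = 0.0748) but was called by library size alone (-0.68) and in TPM values (-0.71). *Psmb9*, the counterpart of *Psmb6*, stood at 2.85 and 2.88 CPM in vehicle-treated WT, 5.14 and 5.81 CPM in vehicle-treated *Arid1a* KO, 3.18 and 3.28 CPM in JSH-23-treated WT and 3.84 and 3.12 CPM in JSH-23-treated *Arid1a* KO tumors. Its *Arid1a* KO samples were above WT with vehicle, by 0.94 (standard error 0.201, adjusted p = 5.94e-05) in edgeR, and overlapped WT with JSH-23. Relative to *Psmb5*, the TPM of *Psmb8* was 6.30% and 6.90% in vehicle-treated WT, 15.9% and 17.0% in vehicle-treated *Arid1a* KO, 6.48% and 5.95% in JSH-23-treated WT and 11.4% and 9.73% in JSH-23-treated *Arid1a* KO tumors. Relative to *Psmb6*, that of *Psmb9* was 5.63% and 5.83% in vehicle-treated WT, 10.5% and 11.9% in vehicle-treated *Arid1a* KO, 7.11% and 7.02% in JSH-23-treated WT and 6.97% and 5.46% in JSH-23-treated *Arid1a* KO tumors. *Tapbp*, a peptide loading factor, was higher in *Arid1a* KO tumors with vehicle (0.41) and lower with JSH-23 (-0.52).

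NFE2L1 is the transcription factor known to raise proteasome genes when proteasome activity falls, after NGLY1 removes its sugars and DDI2 cuts it. Of 9 genes listed for this factor, its relatives and its processing, *Nfe2l3* fell under the filter. Among the other 8, *Arid1a* KO exceeded WT for 2 and lay below for 3 with vehicle, against 2 and 3 with JSH-23. JSH-23 raised 3 and lowered 3 in WT, raised 3 and lowered 5 in *Arid1a* KO tumors, and gave 1 positive and 4 negative interactions in edgeR. The counts were 2 and 2, 2 and 3, 3 and 3, 3 and 5 and, for the interaction, 1 and 3 in DESeq2 and 2 and 3, 1 and 5, 2 and 4, 3 and 5 and, for the interaction, 1 and 5 with limma on TPM values. *Nfe2l1* stood at 399.9 and 398 CPM in vehicle-treated WT, 654 and 648 CPM in vehicle-treated *Arid1a* KO, 428 and 415 CPM in JSH-23-treated WT and 478 and 494 CPM in JSH-23-treated *Arid1a* KO tumors. Highest were the *Arid1a* KO samples with vehicle, above WT by 0.71 (standard error 0.0207, adjusted p = 3.15e-41) in edgeR, and with JSH-23 it fell by 0.42 there. *Ngly1* stood at 76.5 and 73.1 CPM in vehicle-treated WT, 42.7 and 43.9 CPM in vehicle-treated *Arid1a* KO, 81.1 and 76.9 CPM in JSH-23-treated WT and 82.6 and 82.4 CPM in JSH-23-treated *Arid1a* KO tumors. It was lowest in the *Arid1a* KO samples with vehicle, at -0.79 (standard error 0.0516, adjusted p = 7.43e-22) against WT on the log2 scale in edgeR, and JSH-23 raised it there by 0.93. *Nfe2l1* and *Ngly1* thus differed between the genotypes in opposite directions with vehicle. *Ddi2* rose with JSH-23 by 0.35 in WT and 0.43 in *Arid1a* KO tumors, and *Nfe2l2* fell by 0.35 in *Arid1a* KO tumors. Among ubiquitin and shuttle genes, 13 of 14 listed symbols were found, and *Ufd1*, listed by an older name, was not counted. Among these, *Arid1a* KO exceeded WT for 4 and lay below for 7 with vehicle, against 5 and 5 with JSH-23. JSH-23 raised 8 and lowered 2 in WT, raised 8 and lowered 3 in *Arid1a* KO tumors, and gave 7 positive and 4 negative interactions in edgeR. DESeq2 called 4 and 6, 5 and 5, 7 and 2, 8 and 3 and, for the interaction, 7 and 3. With limma on TPM values the balance with JSH-23 turned in *Arid1a* KO tumors, with 4 and 6, 3 and 8, 7 and 3, 5 and 7 and, for the interaction, 1 and 6. The ubiquitin gene *Rps27a* rose by 0.71 with JSH-23 in *Arid1a* KO tumors, and the autophagy receptor *Sqstm1* fell by 0.61. For the ubiquitin ligase that marks IκB, 4 of 5 listed symbols were found, and *Skp1*, listed by an older name, was not counted. There *Arid1a* KO exceeded WT for 1 and lay below for 2 with vehicle, against 2 and 2 with JSH-23. JSH-23 raised 1 and lowered 1 in WT, raised 2 and lowered 0 in *Arid1a* KO tumors, and gave 1 positive and 0 negative interactions. Both 0 counts from edgeR were 0 at an unadjusted p. The numbers were 0 and 2, 0 and 1, 1 and 0, 2 and 0 and, for the interaction, 0 and 0 in DESeq2 and 1 and 2, 0 and 3, 1 and 1, 0 and 1 and, for the interaction, 0 and 1 with limma on TPM values.

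Promoters were searched for 4 motifs. RefSeq promoters of 300 bases, from 250 before to 50 after the start of the gene in GRCm38.p6, were held for 36 of the 42 members, with 40 promoters, among 32851 in all. The letters were searched on both strands. The antioxidant response element core TGACNNNGC, bound by NFE2L1 and NFE2L2, was found in 6 of 40 member promoters (15%) and 12.4% of all promoters (*Psmb5*, *Psmb6*, *Psmc6*, *Psmd9*, *Psmd12* and *Psme4*). CCAAT, bound by NF-Y, was found in 14 of 40 member promoters (35%) and 37.4% of all promoters, and CACGTG, an E-box bound by MYC, in 5 of 40 member promoters (12.5%) and 7.15% of all promoters. ACTTCCG, bound by ETS factors, was found in 14 of 40 member promoters (35%) and 6.42% of all promoters. A match gives the letters and not binding. The 13 members with ACTTCCG included *Psmd8*, which rose with JSH-23, and *Psmd6*, which fell, and 9 members with a promoter, among them *Psma5*, held none of the 4 motifs. The 120 bases before the start are printed for 8 named members on the strand of the gene. Capitals mark full matches of the 4 motifs in either orientation.
*Psma2* (chr13:14613122-14613241, plus strand): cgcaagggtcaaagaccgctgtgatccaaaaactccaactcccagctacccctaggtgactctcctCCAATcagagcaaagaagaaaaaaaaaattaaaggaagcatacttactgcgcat
*Psmb3* (chr11:97703314-97703433, plus strand): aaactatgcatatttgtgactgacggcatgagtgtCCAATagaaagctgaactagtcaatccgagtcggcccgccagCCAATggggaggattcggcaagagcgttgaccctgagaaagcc
*Psmb5* (chr14:54617996-54618115, minus strand): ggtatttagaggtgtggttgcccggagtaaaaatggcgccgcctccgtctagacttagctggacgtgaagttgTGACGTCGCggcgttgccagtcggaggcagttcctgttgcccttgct
*Psmc1* (chr12:100110082-100110201, plus strand): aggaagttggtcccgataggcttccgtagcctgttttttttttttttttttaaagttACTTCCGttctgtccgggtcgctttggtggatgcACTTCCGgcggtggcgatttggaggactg
*Psmd6* (chr14:14120946-14121065, minus strand): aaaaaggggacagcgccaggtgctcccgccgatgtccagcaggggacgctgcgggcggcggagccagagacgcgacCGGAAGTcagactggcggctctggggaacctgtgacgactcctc
*Psmd8* (chr7:29180674-29180793, minus strand): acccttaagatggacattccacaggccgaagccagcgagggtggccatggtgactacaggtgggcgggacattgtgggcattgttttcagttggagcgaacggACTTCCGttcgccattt
*Psmd10* (chrX:140956712-140956831, minus strand): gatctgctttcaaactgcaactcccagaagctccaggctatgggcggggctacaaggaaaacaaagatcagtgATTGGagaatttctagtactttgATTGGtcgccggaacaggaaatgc
*Psmd12* (chr11:107479408-107479527, plus strand): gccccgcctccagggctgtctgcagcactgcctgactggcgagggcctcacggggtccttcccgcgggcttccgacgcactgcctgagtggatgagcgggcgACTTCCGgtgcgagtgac
In these windows *Psmb5* held the antioxidant response element core, while *Psma2*, *Psmb3* and *Psmd10* held only CCAAT and *Psmc1*, *Psmd6*, *Psmd8* and *Psmd12* only ACTTCCG.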

How the data were processed

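The samples were 4 groups of 2 sorted Myc-CaP tumor samples. The authors aligned paired-end reads to GRCm38/mm10, with TopHat2 by the methods and HISAT2 by the submitters' notes, and made the count values by strand with HTSeq-count. The deposited TPM values divide the count by gene length and are scaled per sample. Reads of near-identical copies may sit on either.

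edgeR 4.0.16 in R 4.3.3 tested the 13921 of 39089 genes that filterByExpr kept, with TMM factors (0.949 to 1.03), a mean for every group and Benjamini-Hochberg adjustment in each of the 5 contrasts. Chi-square per degree of freedom between the samples of a group was 1.45 to 1.57. The alternatives used DESeq2 1.42.0, limma 3.58.1 on TPM values with 1 or 0.1 added, library size as the only scaling, other filters for low counts, a block for replicate number, a larger dispersion, fits to the compared groups alone, and omission of single samples. Members, lists and motifs were chosen with earlier results of these data known. Full values are given for *Psmb5*, *Psmb6*, *Psmb7* and *Psmb10*, the called member with the largest change in each subunit group and contrast of 2 groups, the 3 with the smallest interaction p and the members that are not proteasome parts. Other members of a count of 5 or fewer, and the summarised ones, were named after their values were seen.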

Additional observations from a re-analysis of the deposited data

Results flagged for a closer look

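The effect of JSH-23 differed between the genotypes for 14 of the members given in full. The test was the interaction in edgeR's quasi-likelihood model, adjusted by Benjamini-Hochberg (adjusted p from 5.58e-16 to 0.0112). Among these, *Psmd8*, *Psmb7* and *Psmd3* were chosen by their small interaction p, so part of the count was set by that choice. The others, apart from *Psmb6*, were chosen for the largest change in a contrast of 2 groups. The interaction is built from such contrasts, so that choice also favoured calls among them. Over all 42 members 25 interactions were called positive and 3 negative, against 20.5% and 17.9% of all genes. On the log2 scale the change in *Arid1a* KO minus that in WT tumors was 0.55 for *Psma2*, 0.47 for *Psma5*, 0.24 for *Psmb3*, 0.23 for *Psmc1*, 0.39 for *Psmd12*, 0.59 for *Psmd10*, 0.21 for *Psmd5*, 0.43 for *Psmd8*, 0.52 for *Psmb7*, 0.38 for *Psmd3* and 0.33 for *Psmb6*. It was -0.30 for *Psmc2*, -0.33 for *Psme3* and -0.18 for *Psme4*. When the biological coefficient of variation was set to 0.1, edgeR called 0 member interactions, against 6 at an unadjusted p under 0.05, all positive, and 20 positive and 3 negative in DESeq2. In TPM values limma did not call *Psma5* (0.27, adjusted p = 0.0544), *Psmb3* (0.04), *Psmc1* (0.03) or *Psmd5* (0.01). Library size alone did not call *Psmb3* (0.14) or *Psmd5* (0.11), and DESeq2 did not call *Psmd5*. The other 10 kept their sign and call in all 3. The cause of the differences was not tested.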

How the results depend on the processing

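Of 927 values recomputed under the alternatives, 828 kept their direction and side of the threshold or stayed within the set tolerance, 39 lost the threshold, 56 moved further and 4 reversed; the cause was not tested. The tolerance was a factor of 1.5 for a count of members and 0.0191 for a median on the log2 scale. It was wide for counts. With JSH-23 in *Arid1a* KO tumors, 18 members higher with limma on log2(TPM + 1) against 27 in edgeR was within it. Reversal was scored only for 35 changes of single members chosen by rule, and not for group medians or other members. Reversed were *Psmb6* with JSH-23 in *Arid1a* KO tumors (-0.042 with 1 and -0.042 with 0.1 added to TPM) and *Psme3ip1* between the genotypes under JSH-23 (-0.0048 and -0.0049). Limma on TPM with 1 or 0.1 added called 13 or 14 members higher and 5 or 5 lower in *Arid1a* KO tumors given JSH-23. With either addition it called 11 lower for JSH-23 in WT, 15 lower and 3 past 1.5-fold for JSH-23 in *Arid1a* KO tumors, and 9 positive, 10 negative and 0 1.5-fold interactions. Library size alone called 2 lower in *Arid1a* KO tumors given JSH-23, 3 past 1.5-fold for JSH-23 in *Arid1a* KO tumors, and 16 positive, 5 negative and 0 1.5-fold interactions. At a biological coefficient of variation of 0.1, edgeR called 3 higher and 1 lower in *Arid1a* KO against WT tumors with vehicle, 5 and 0 with JSH-23, 2 and 2 when WT tumors received JSH-23, 17 and 3 when *Arid1a* KO tumors did, and 0 and 0 interactions, 0 past 1.5-fold. Where these numbers are 0, an unadjusted p under 0.05 gave 0 lower with JSH-23, 6 and 0 interactions and 1 past 1.5-fold, DESeq2 called 1 lower and 1 past 1.5-fold, and limma on TPM gave 0 past 1.5-fold unadjusted. Omission of single samples gave ranges, higher then lower, of 12 to 15 and 6 to 8 in *Arid1a* KO against WT with vehicle, 28 to 32 and 1 to 1 with JSH-23, 12 to 15 and 3 to 5 for JSH-23 in WT, 25 to 30 and 4 to 5 in *Arid1a* KO, and 22 to 26 and 3 to 3 for the interaction; 1.5-fold counts spanned 4 to 8 for JSH-23 in *Arid1a* KO and 0 to 2 for the interaction. The lone sample left in a group was assumed to vary like the others. With replicate number as a block the calls were 27 higher and 5 lower for JSH-23 in *Arid1a* KO tumors, and differences between replicates 1 and 2 correlated between groups by -0.096 to 0.040, which gave no sign of pairing. With 2 samples a group, the spread rests on all groups together, and a larger spread between tumors would leave fewer calls.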
